A study of Homo sapiens with 2 samples.

Results

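Complex I, the NADH dehydrogenase of the respiratory chain, is built mostly from nuclear-encoded proteins, and the mRNAs of 37 such subunits were measured here together with 8 assembly factors. The genes were taken by symbol, as those starting with NDUFA, NDUFB, NDUFC, NDUFS or NDUFV. NDUFA4 and NDUFA4L2 were left out, since NDUFA4 is a subunit of cytochrome c oxidase. The NDUFAF genes formed the assembly factors. This gave 45 genes of the 13219 listed in either of the libraries, plus 1 read-through gene, NDUFC2-KCTD14. All 45 genes had a value in both libraries and passed the filter on low values. The first library, siYBX1, came from cells of a human breast line transfected with a silencing reagent against YBX1, which encodes the RNA- and DNA-binding protein YB-1, and the second, siNC, from the same line transfected with the control of that name. The labels call the line 231 and the reagent an siRNA, while the design text calls it a Smart Silencer. Cells were grown in L15 medium with serum and collected 48 h after transfection. Each group had 1 library, so replicate error is unknown, no test across samples could be made, and every difference below compares these libraries only.

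Complex I has the shape of an L. Its matrix arm oxidises NADH and carries the electrons along a chain of iron-sulfur clusters to ubiquinone, and its membrane arm pumps protons out of the matrix. The core subunits do this work: those of the matrix arm are nuclear-encoded and those of the membrane arm come from mitochondrial DNA. Around them sit the supernumerary or accessory subunits, most of them small proteins that hold the complex together and are needed for its assembly. The assembly factors act on intermediates and are not part of the finished enzyme.

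The deposited values were FPKM, in which fragments are scaled to the length of the transcript and the size of the library. No read counts were used here. Depth is therefore unknown and counting error cannot be computed. Summed FPKM came to 222872 over 11678 genes in siYBX1 cells and to 201233 over 13017 genes in siNC cells. YBX1 itself stood at 38.1 FPKM in siYBX1 cells, against 649 FPKM in siNC cells, a 17.0-fold lower level. Of 6 markers of a mesenchymal-like breast line, all were listed in both libraries, with VIM at 249.7 against 201 FPKM. Of 6 luminal epithelial markers, 3 were listed in both, KRT18 at 57.2 against 64.2 FPKM, EPCAM at 5.10 against 8.22 FPKM and GATA3 at 2.14 against 2.34 FPKM. CDH1 was listed in the siNC library only, and ESR1 and PGR in neither. Of 6 leukocyte markers, CD68 stood at 17.4 FPKM in siYBX1 cells, against 39.4 FPKM in siNC cells, and LYZ at 0.671 against 1.91 FPKM. The other 4 were listed in neither library, as were the endothelial and erythroid markers. Of 12 hepatocyte markers, 10 were listed in the siNC library only. ALB was among them at 10.4 FPKM, and the list summed to 39.96 FPKM in siYBX1 cells, all of it SERPINA1, and 66.5 FPKM in siNC cells. The part of these markers in the differences below was not tested.

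Subunit mRNAs were mostly higher in the siYBX1 library, and those of the NDUFAF assembly factors were not. Differences are given in log2(FPKM + 1), siYBX1 minus siNC, a scale that understates the differences of low genes, and a difference of 1 is counted as 2-fold. Of the 37 subunits, 10 (27.0%) were at least 2-fold higher, against 7.20% of the 10548 compared genes, those present in both libraries whose mean reached 1 FPKM. At least 2-fold lower were 2 subunits, while 5.62% of all compared genes were. A difference above 0 was found for 29 subunits (78.4%) and for 51.0% of all compared genes. The median difference was 0.77 over the subunits, 0.02 over the assembly factors and 0.02 over all compared genes. In RNA from whole cultures, a different mix of cells and a different amount of RNA per cell cannot be told apart. The subunit median was above 0 in all 14 alternative settings, between 0.40 and 0.80. That of the assembly factors went below 0 in 5 of them.

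**Figure D1:**
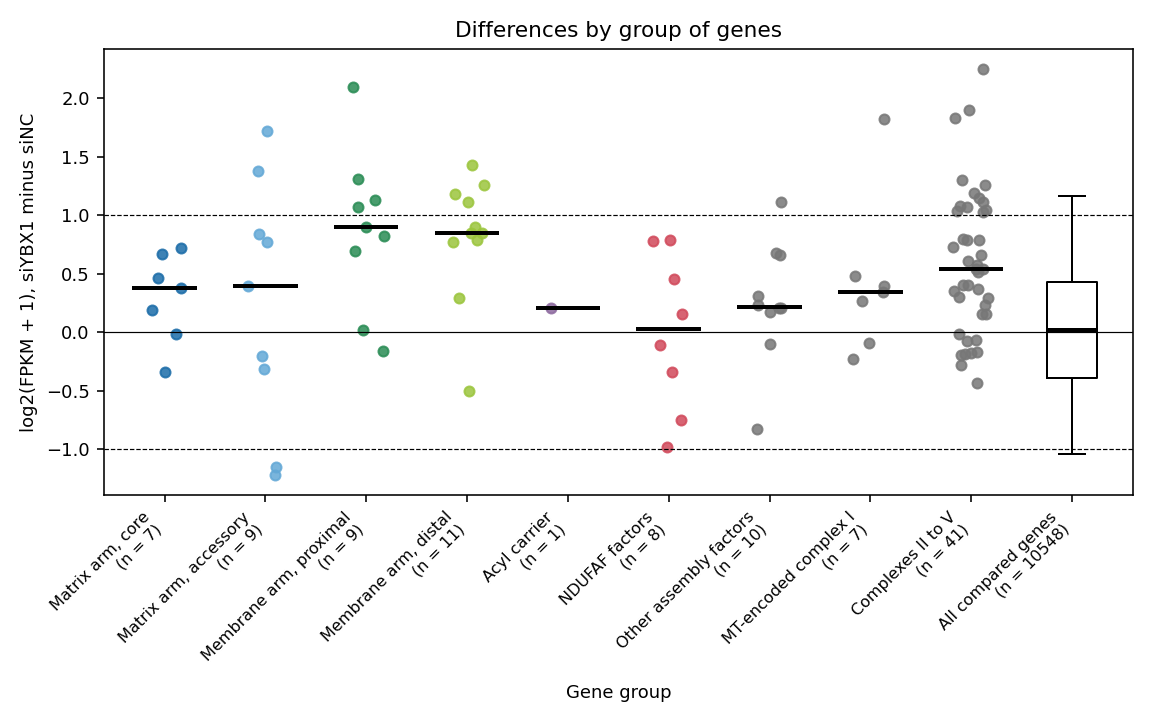
Difference in log2(FPKM + 1), siYBX1 minus siNC, for each gene (points) by group, with the group's median as a bar. The box for all compared genes spans the quartiles with whiskers at percentiles 5 and 95, and dashed lines mark 2-fold. The membrane arm groups sit highest, with medians of 0.90 and 0.85, and the NDUFAF factors lie around 0.

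**Figure D2:**
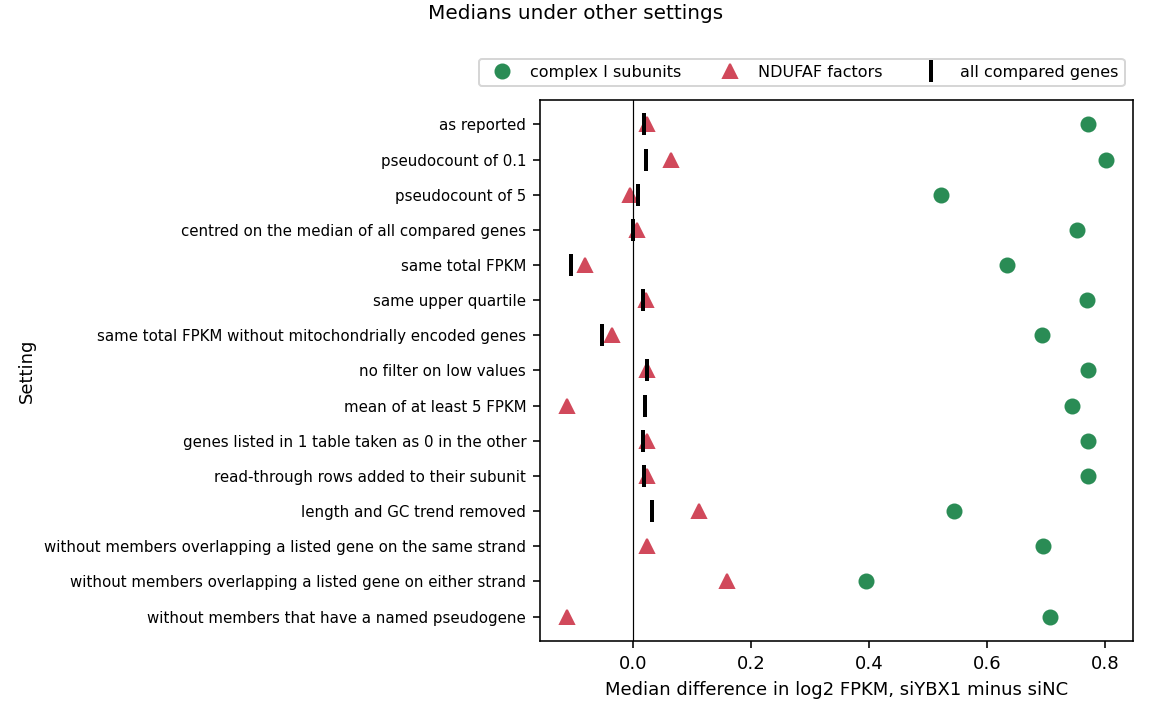
Median difference in log2 FPKM, siYBX1 minus siNC, of the complex I subunits (circles), the NDUFAF factors (triangles) and all compared genes (bars) as reported and under 14 other settings; settings that leave out members have no bar. The subunit median lies between 0.40 and 0.80 throughout, and that of the assembly factors between -0.11 and 0.16.

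Of the 7 core subunits of the matrix arm, none reached 2-fold in either direction. Their median difference was 0.38. NDUFV1, which binds NADH and the flavin that takes up its electrons, had 16.4 FPKM in siYBX1 cells, against 9.91 FPKM in siNC cells, a difference of 0.67. NDUFS8, a carrier of iron-sulfur clusters, stood at 11.5 FPKM in siYBX1 cells, against 8.01 FPKM in siNC cells (0.47). NDUFS7, which holds the last cluster of the chain and was the lowest of all subunits, had 3.41 against 2.38 FPKM (0.38). NDUFS3 had 9.10 against 7.86 FPKM (0.19). Of the core members, 2 were level or lower. NDUFV2, which binds a cluster next to the flavin, had 33.1 FPKM in siYBX1 cells, against 33.5 FPKM in siNC cells (-0.02). NDUFS1, the largest subunit and the carrier of several clusters, had 8.74 against 11.3 FPKM (-0.34). With a trend in transcript length and GC content removed, the core median was 0.10.

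The 9 accessory subunits of the matrix arm went both ways, with 2 past 2-fold upward, 2 downward and a median of 0.40. NDUFA2, a small protein with a thioredoxin-like fold in the NADH-oxidising module, had 38.4 FPKM in siYBX1 cells, against 10.9 FPKM in siNC cells, 3.51-fold higher with a difference of 1.72. NDUFS6, a zinc-binding subunit of the same module, had 53.1 against 19.8 FPKM (1.38). In the same arm were the only subunits at least 2-fold lower. NDUFA6, a LYR-motif protein that anchors an acyl carrier protein to the matrix arm, had 31.0 FPKM in siYBX1 cells, against 73.6 FPKM in siNC cells, 2.37-fold lower with a difference of -1.22. NDUFS4, which joins late with the NADH-oxidising module and is a frequent site of mutations in Leigh syndrome, had 32.2 against 73.0 FPKM (-1.16). Neither gene overlapped another listed gene in the annotation. NDUFA9 had 5.39 against 2.58 FPKM (0.84), short of 2-fold on the log2(FPKM + 1) scale although its FPKM were 2.09-fold apart. The other members were NDUFA7 (13.9 against 7.70 FPKM, 0.77), NDUFA5 (6.47 against 4.68 FPKM, 0.40), NDUFA12 (23.5 against 27.2 FPKM, -0.20) and NDUFV3 (7.28 against 9.28 FPKM, -0.31). The acyl carrier protein itself, NDUFAB1, which sits in both arms, differed little, at 34.3 against 29.6 FPKM (0.21).

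The accessory subunits of the membrane arm held most of the higher genes: 8 of 20 reached 2-fold upward and 0 downward. Over all compared genes these shares were 7.20% and 5.62%. In the proximal part, near the joint with the matrix arm, the median over 9 subunits was 0.90. NDUFA1, a small single-span membrane protein encoded on the X chromosome and needed for assembly of the complex, had the largest difference of all subunits. It stood at 93.4 FPKM in siYBX1 cells, against 21.1 FPKM in siNC cells, 4.42-fold higher with a difference of 2.09, and 99.5% of all compared genes lay below that difference. NDUFA13, also known as GRIM-19, had 21.7 against 8.18 FPKM (1.31). NDUFA3 had 12.2 against 5.02 FPKM (1.13). NDUFA8, a disulfide-bonded subunit on the outer face of the membrane arm, had 89.5 against 41.9 FPKM (1.07) and was the last to reach 2-fold. Just short of it on the log2(FPKM + 1) scale stood NDUFC1, at 9.63 against 4.70 FPKM (0.90), although its FPKM were 2.05-fold apart. NDUFC2 had 37.4 against 20.7 FPKM (0.82). NDUFA11 followed at 11.5 against 6.71 FPKM (0.70). NDUFA10, which has a nucleoside kinase fold, was nearly level, at 6.34 against 6.22 FPKM (0.02). NDUFS5, another disulfide-bonded subunit and by far the most abundant subunit mRNA per length, had 315 FPKM in siYBX1 cells, against 352 FPKM in siNC cells (-0.16).

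In the distal part of the membrane arm the accessory subunits taken here were the NDUFB subunits. Among them 10 of 11 genes had a difference above 0 and the median was 0.85. Of these, 4 were at least 2-fold higher. NDUFB6 had 47.5 FPKM in siYBX1 cells, against 17.0 FPKM in siNC cells (1.43), and NDUFB3 had 42.7 against 17.3 FPKM (1.26). NDUFB2 had 15.6 against 6.28 FPKM (1.19), and NDUFB4 had 16.4 against 7.05 FPKM (1.11). Another 5 members lay close together between 0.77 and 0.90: NDUFB1, NDUFB8, NDUFB9, a second LYR-motif protein, NDUFB7 and NDUFB5. Their levels ran from 5.78 FPKM (NDUFB5) to 94.7 FPKM (NDUFB7) in siYBX1 cells and from 2.97 to 54.3 FPKM in siNC cells. NDUFB11, encoded on the X chromosome like NDUFA1, had a small difference, at 42.0 against 34.0 FPKM (0.30). NDUFB10 alone was lower, at 17.6 against 25.4 FPKM (-0.50).

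**Figure D3:**
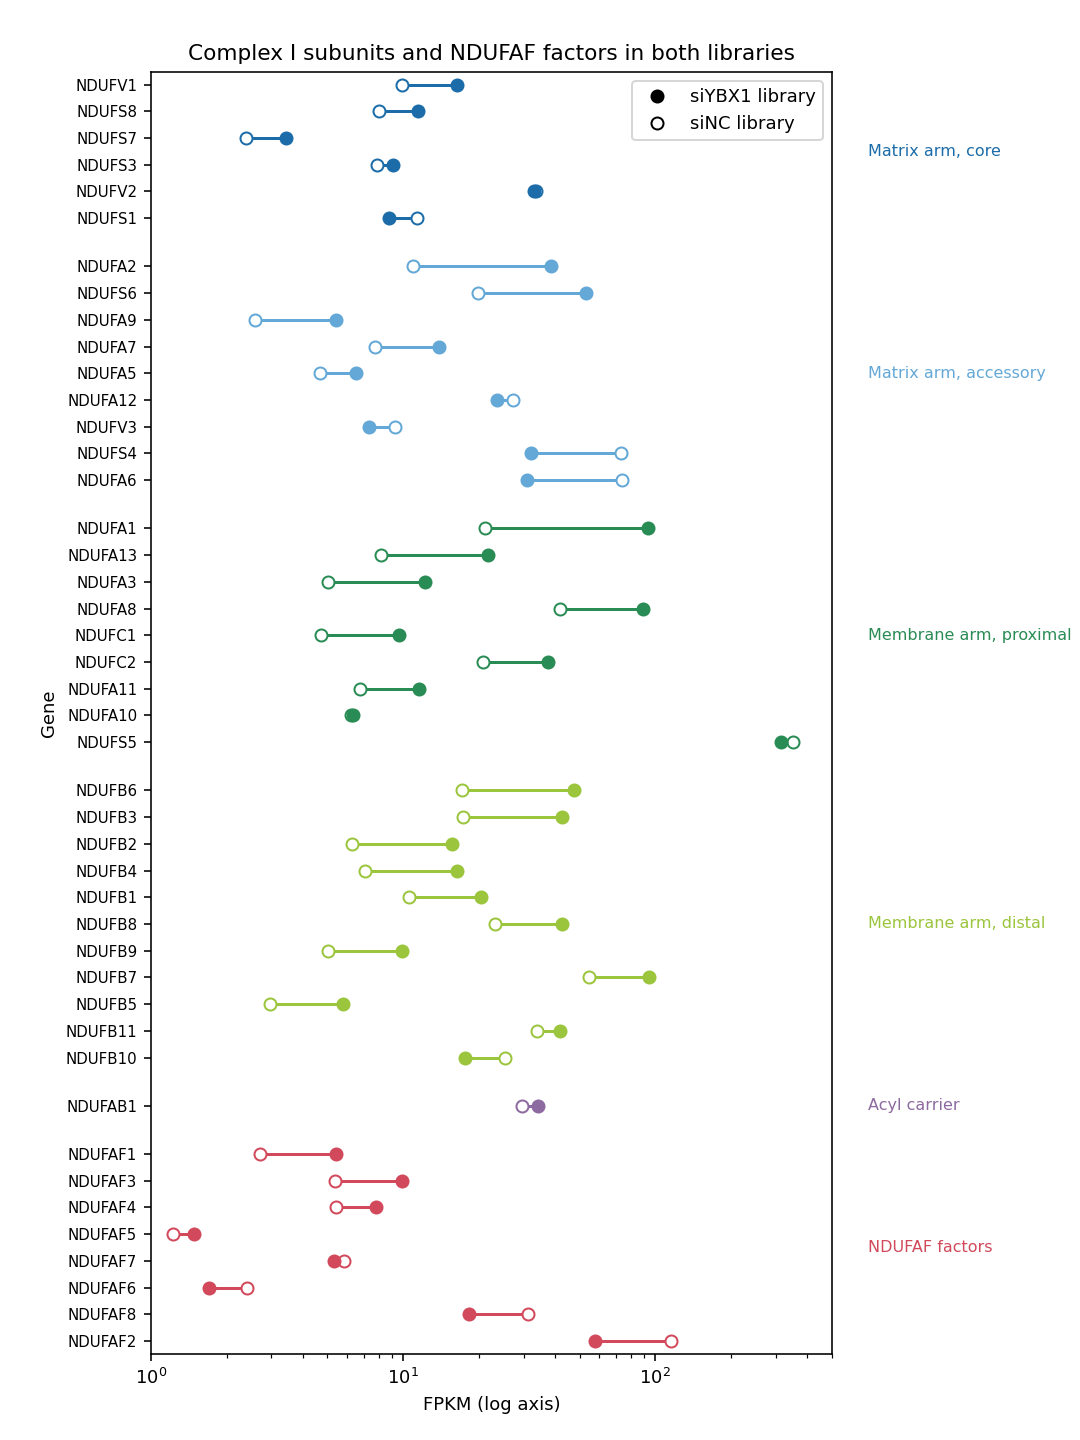
FPKM of complex I subunits and NDUFAF factors (log axis) in the siYBX1 library (filled) and the siNC library (open), grouped by place in the complex and ordered by difference within a group. In the membrane arm groups the filled point is to the right for 18 of 20 genes, and among the genes plotted NDUFA6, NDUFS4, NDUFAF2 and NDUFAF8 show the widest gaps to the left.

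The 8 NDUFAF assembly factors were split evenly, 4 with a difference above 0 and 4 below, and none reached 2-fold on the log2(FPKM + 1) scale. NDUFAF1, which works with ACAD9 and ECSIT on the membrane arm, had 5.39 FPKM in siYBX1 cells, against 2.71 FPKM in siNC cells (0.79). NDUFAF3 and NDUFAF4 act together on the intermediate that holds the ubiquinone site, and both were higher. NDUFAF3 had 9.89 against 5.34 FPKM (0.78) and NDUFAF4 had 7.79 against 5.42 FPKM (0.45). The lowest difference was that of NDUFAF2, a paralogue of NDUFA12 that occupies its place until late in assembly. It had 57.9 FPKM in siYBX1 cells, against 115 FPKM in siNC cells (-0.98), just inside 2-fold, and was the most abundant assembly factor in both. NDUFAF8, a partner of NDUFAF5, had 18.2 against 31.3 FPKM (-0.75). The modifying enzymes differed less. NDUFAF5, which hydroxylates an arginine of NDUFS7, had 1.48 against 1.22 FPKM (0.16), and NDUFAF7, a methyltransferase, had 5.33 against 5.84 FPKM (-0.11). NDUFAF6 had 1.69 against 2.41 FPKM (-0.34). The subunit median exceeded that of the assembly factors by 0.75, but this gap was 0.43 once the trend in length and GC was subtracted, and 0.24 without members that overlap a listed gene on either strand.

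Assembly factors with other names lay between these groups. Of 11 such genes, all were listed in both libraries and 10 were compared, with 1 at least 2-fold higher, 0 lower and a median of 0.22. COA1 had 8.24 FPKM in siYBX1 cells, against 3.27 FPKM in siNC cells (1.11), whereas TIMMDC1, which helps build the proximal membrane arm, had 7.93 against 14.8 FPKM (-0.83). TMEM186 (4.76 against 2.60 FPKM, 0.68) and FOXRED1 (7.88 against 4.63 FPKM, 0.66) were next. ACAD9, at 7.27 against 7.88 FPKM (-0.10), and ECSIT, at 5.54 against 4.80 FPKM (0.17), were nearly level.

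The level of a subunit mRNA differed widely within each library, although the finished complex holds most subunits in equal number. From the lowest subunit to the highest, FPKM spanned 92.3-fold in siYBX1 cells and 148-fold in siNC cells. The lowest was NDUFS7 and the highest NDUFS5 in both. The standard deviation of log2(FPKM + 1) over the 37 subunits was 1.32 in siYBX1 cells and 1.41 in siNC cells. Across the 37 subunits, which are not independent replicates, levels in siYBX1 and siNC cells had a Pearson correlation of 0.859 and a Spearman correlation of 0.832. Over all 10548 compared genes these were 0.892 and 0.877. The share of the 37 subunits in all FPKM was 0.584% in siYBX1 cells and 0.504% in siNC cells. Without NDUFS5 it was 0.443% against 0.329%.

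Transcript length moved with the difference, and complex I subunits are mostly short. Over 10 bins of equal size by transcript length, taken from the longest coding transcript of a gene, the median of all compared genes was 0.22 in the shortest bin (207 to 1432 bases) and -0.23 in the longest. The shortest bin held 24 of the 37 subunits. These had a median of 0.82, and 9 of the 24 were at least 2-fold higher, against 17.6% of all compared genes in that bin. All 10 higher subunits had transcripts of 755 to 1666 bases and coding lengths of 210 to 516 bases. The transcripts of NDUFS4 and NDUFAF2 have 675 and 719 bases. The part of length in the differences was not tested beyond the removal of a trend. Coding length was that of the same longest transcript, which may not be the main one expressed. Across the 37 subunits the difference had Spearman's rho of -0.127 with transcript length and -0.488 with coding length. Across 10474 compared genes these were -0.200 and -0.245. All these values share the same pair of libraries. With the length and GC trend of all genes removed, the subunit median was 0.54, with 8 subunits past 2-fold upward and 2 downward. The proximal and distal membrane arm medians were then both 0.75. In that setting 2 of 9 proximal and 3 of 11 distal genes were at least 2-fold higher, against 6.50% of all compared genes.

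**Figure D4:**
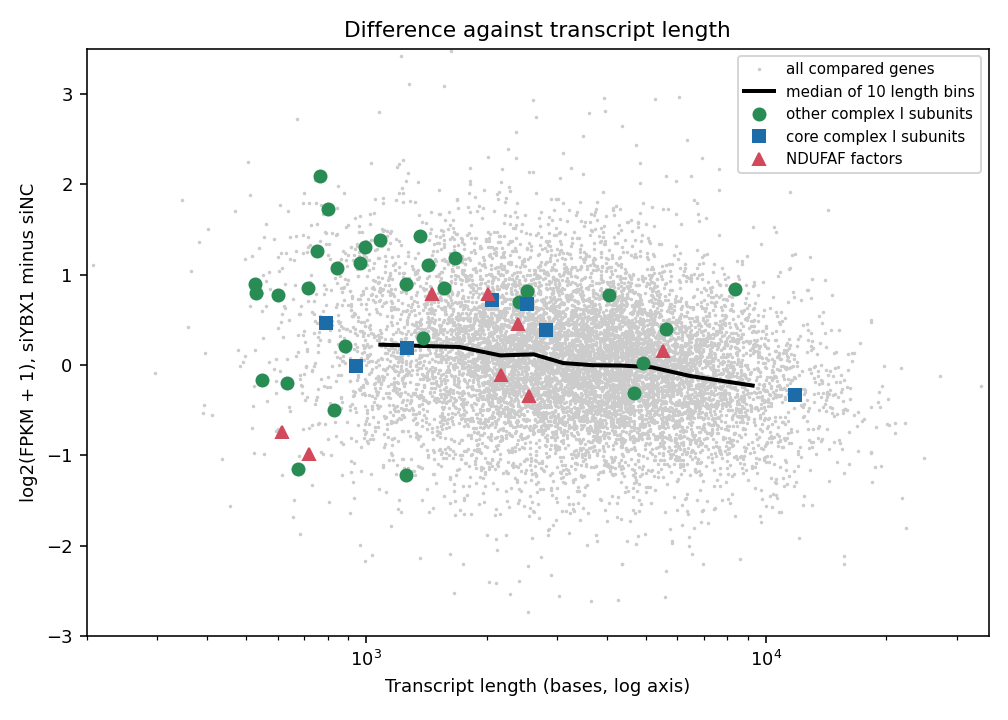
Difference in log2(FPKM + 1), siYBX1 minus siNC, against transcript length in bases (log axis) for all compared genes (grey), core subunits, other subunits and NDUFAF factors; the line joins the medians of 10 length bins and the y axis leaves out the most extreme genes. Most accessory subunits lie above the level of the line at the short end. NDUFA6 and NDUFS4 lie furthest below it, and NDUFB10, NDUFA12 and NDUFS5 are among the others below.

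Several values are uncertain because genes overlap or share sequence. In GENCODE 29 the spans of 16 of the 37 subunits, introns included, overlap that of another listed gene on either strand. The handling of strand is not known. Shared exon bases can be few or none, as for NDUFB6 with SMIM27 (14 of 1388) and NDUFC1 with NAA15 (0 of 1941). These 16 had 7 of the 10 higher genes and a median of 0.87, while the 21 that overlap none had 3 of 21 at least 2-fold higher, NDUFS6, NDUFB4 and NDUFA8, both lower genes, and a median of 0.40. Over all compared genes, overlap made little difference, with 7.45% at least 2-fold higher among those that overlap a listed gene and 7.07% among the rest. NDUFA1 shares 341 of its 766 exon bases with RNF113A on the other strand, which went the other way, at 9.02 FPKM in siYBX1 cells, against 13.3 FPKM in siNC cells. NDUFB2 shares 64 of 4447 exon bases with ADCK2, which was also higher (11.5 against 2.60 FPKM). NDUFA13 shares 437 of 2708 exon bases with AC011448.1, at 5.36 against 0.761 FPKM. NDUFB8 shares 675 of 1999 with AL133352.1, which went the other way, at 4.72 against 15.2 FPKM. NDUFC2-KCTD14, which spans NDUFC2, was listed at 0.754 FPKM in siYBX1 cells and listed at 0 in siNC cells. Pseudogenes are a further limit: 18 members have pseudogenes named after them, 58 in all, of which NDUFB4 and NDUFA5 have 12 each. Their sequence identity to the members was not measured. None of these was listed in either library, but whether pseudogenes could be listed at all is not known.

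The mitochondrially encoded subunits of complex I had a smaller median, 0.34 over 7 mRNAs, with MT-ND3 at least 2-fold higher, at 2400.4 FPKM in siYBX1 cells, against 676 FPKM in siNC cells (1.83). The nuclear-encoded subunits of complexes II to V were close to those of complex I: 13 of 41 were at least 2-fold higher, 0 were lower, and the median was 0.54 as reported and 0.53 with the length and GC trend removed. The difference between these lists was not tested. COX8A (323 against 67.1 FPKM, 2.25), ATP5MK, listed as USMG5 (150.4 against 39.5 FPKM, 1.90), and NDUFA4 (30.5 against 7.85 FPKM, 1.83) had the largest differences there, followed by COX7A2 at 40.7 against 15.9 FPKM. None of the complexes II to V subunits was lower to the extent of NDUFA6 or NDUFS4, with SDHA at 21.3 against 29.2 FPKM (-0.43) the lowest.

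Genes that serve complex I in other ways had medians nearer to 0. The iron-sulfur cluster assembly genes had 2 of 12 compared genes at least 2-fold higher, 0 lower and a median of 0.23, with the glutaredoxin GLRX5 at 22.9 FPKM in siYBX1 cells, against 8.94 FPKM in siNC cells (1.27) and ISCA1 at 17.2 against 6.96 FPKM (1.19). Their scaffold ISCU had 12.8 against 15.6 FPKM (-0.27). Of 7 compared regulators of respiratory gene transcription, 1 was at least 2-fold higher and 0 lower, with a median of 0.01 that changed sign between settings. The higher one was the nuclear receptor ESRRA, at 13.1 against 4.47 FPKM (1.36), whereas NRF1 had 5.82 against 4.41 FPKM (0.33) and GABPA, the binding subunit of the factor GABP, 6.16 against 6.54 FPKM (-0.07). The coactivator gene PPARGC1A was not listed in the siYBX1 library and stood at 0.405 FPKM in the siNC library. The mitochondrial proteases, which degrade subunits in the matrix and inner membrane, had 0 of 5 genes at least 2-fold different and a median of -0.26, with CLPP at 16.4 against 29.7 FPKM (-0.82).

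The promoters of the 4 subunits with the highest differences and of the 2 lowest are shown because these genes stand at opposite ends of a complex whose other subunit mRNAs were mostly higher. Each sequence is RefSeq's, on GRCh38.p14, and gives the 150 bases before the gene's start, 5′ to 3′ on the gene's strand. Capitals mark matches, on either strand, to the CCAAT box (CCAAT) and to short forms of 3 other motifs. These belong to factors known to drive respiratory genes, ETS/GABP (CCGGAAG), NRF1 (GCGCANGC) and YY1 (AANATGGC).
NDUFA1, chrX:119871682-119871831 (+ strand): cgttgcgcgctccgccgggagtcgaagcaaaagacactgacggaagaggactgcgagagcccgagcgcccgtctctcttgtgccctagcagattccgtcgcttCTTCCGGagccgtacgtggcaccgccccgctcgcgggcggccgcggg
NDUFA2, chr5:140647631-140647780 (- strand): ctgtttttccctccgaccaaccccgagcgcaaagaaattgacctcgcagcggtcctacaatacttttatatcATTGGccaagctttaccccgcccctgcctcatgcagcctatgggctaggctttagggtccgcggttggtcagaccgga
NDUFB6, chr9:32573160-32573309 (- strand): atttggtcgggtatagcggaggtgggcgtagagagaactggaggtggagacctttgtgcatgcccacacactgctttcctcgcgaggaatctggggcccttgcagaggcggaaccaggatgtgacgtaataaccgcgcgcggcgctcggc
NDUFS6, chr5:1801257-1801406 (+ strand): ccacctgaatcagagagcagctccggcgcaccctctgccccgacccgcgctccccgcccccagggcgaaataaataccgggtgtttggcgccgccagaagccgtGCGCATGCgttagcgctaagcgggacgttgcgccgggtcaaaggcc
NDUFA6, chr22:42090773-42090922 (- strand): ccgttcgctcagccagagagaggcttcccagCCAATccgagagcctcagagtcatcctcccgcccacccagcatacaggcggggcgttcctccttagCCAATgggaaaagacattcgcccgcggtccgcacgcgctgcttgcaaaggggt
NDUFS4, chr5:53560489-53560638 (+ strand): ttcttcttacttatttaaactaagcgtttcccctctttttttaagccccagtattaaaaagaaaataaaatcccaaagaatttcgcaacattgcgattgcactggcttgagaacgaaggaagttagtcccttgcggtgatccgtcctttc

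In these stretches NDUFA1 had an ETS/GABP match at -47, NDUFS6 an NRF1 match at -46 and NDUFA2 a CCAAT box at -78, while NDUFA6 had CCAAT boxes at -119 and -53, counted back from the start. NDUFB6 and NDUFS4 had no match there. The full promoter windows reach further upstream than these stretches and also take in 50 bases after the start. In them NDUFA1, NDUFS6, NDUFA6 and NDUFS4 each held a YY1 match, and NDUFA6 an NRF1 match as well. NDUFA2 held no YY1 match and NDUFB6 no match of any kind. These full windows were searched for 32 subunits with a RefSeq promoter. Of the 32, 8 (25%) held a CCAAT box, against 43.7% of 8371 compared genes and 34.6% of all 35116 promoters. NRF1 matches were in 12 subunits (37.5%, against 26.8% of compared genes and 12% of all promoters). YY1 matches were in 13 (40.6%, against 13.6% and 6.58%) and ETS/GABP matches in 5 (15.6%, against 24.5% and 10.3%). A gene was counted if any of its windows matched, whereas the share of all promoters counts single windows. Only the share of compared genes is therefore in the same unit as that of the subunits. The median difference of subunits with and without a match was 0.35 and 0.81 for the CCAAT box, 0.47 and 0.79 for YY1, 0.55 and 0.78 for NRF1, and 0.79 and 0.70 for ETS/GABP. Over all compared genes these medians lay between -0.02 and 0.02 for each motif. NDUFA2 and NDUFA6, at opposite ends, both held CCAAT boxes. A match is a run of letters and not a measured binding site.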

How the data were processed

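Each of the 2 tables holds 1 library, and its values are FPKM made by the authors, per the file headers. Tools named in the submitters' processing notes, with no role stated, are HISAT2 2.1.0, StringTie 1.3.3 and cutadapt 1.17, and the build is GRCh37. What annotation was used, whether strand was read and which genes were listed is not given in the sources used here. RNA was extracted with Trizol, per the labels' protocols.

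Differences were log2(FPKM + 1), siYBX1 minus siNC, for genes present in both tables whose mean reached 1 FPKM. With 1 library per group no p-value was computed, and members are set beside the same counts and medians over all compared genes. The procedure was tested on simulated data. Transcript length, GC content, coding length, overlaps and pseudogenes came from GENCODE 29 on GRCh38, not the authors' build, for 99.3% of compared genes. The length and GC trend came from a least-squares fit of B-splines, each of 5 degrees of freedom (patsy 1.0.2), and was subtracted. Python 3.11.15 with pandas 2.3.3 was used. Overlaps were taken between gene spans. Complex V genes under older symbols were matched by identifier.

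The members, lists and groups were chosen with earlier results of these data known. Values are given for the core subunits, apart from 1 gene that is not reported here singly, all subunits past 2-fold, NDUFA1, all NDUFAF genes, the lowest and highest subunits and those next to the threshold, and up to 4 genes of each other list. Other members, and ACAD9, ECSIT, NRF1, GABPA, ISCU, PPARGC1A, SDHA and CLPP, were named after their values were seen. Of the alternatives, 11 were written down beforehand and 3, which leave out overlapping members or those with pseudogenes, were added after seeing the data.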

Additional observations from a re-analysis of the deposited data

How the results depend on the processing

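The count of subunits at least 2-fold lower was 2 in all 14 settings. The count of higher ones was 7 to 12 over the 11 planned settings. It was 12 at a pseudocount of 0.1, where 10.4% of all compared genes were higher, 7 at a pseudocount of 5, where 2.98% were, and 7 at the same total FPKM, where 5.32% were. It was 3 of 21 without members that overlap a listed gene on either strand, where the subunit median was 0.40 and its gap to the assembly factors 0.24, and 5 of 20 without members that have a named pseudogene. The subunit median was 0.52 at a pseudocount of 5, with a gap of 0.53, and 0.54 with the length and GC trend removed, with a gap of 0.43. The assembly factor median, 0.02 as reported, was -0.0052 at a pseudocount of 5, -0.081 at the same total FPKM, -0.036 at the same total without mitochondrially encoded genes, -0.11 where the mean had to reach 5 FPKM and -0.11 without members that have a pseudogene. Scaling to the same total moved the median of all compared genes to -0.11, from 0.02, and the split to 557 higher and 807 lower genes, 759 and 593 as deposited. Over the 11 planned settings, 5 of the 10 higher subunits (NDUFA1, NDUFA2, NDUFA13, NDUFB6 and NDUFS6) and both lower ones stayed past 2-fold. Apart from the alternatives' own construction, the causes of these shifts were not tested. No paired analysis was possible because each group had 1 library. Without counts, depth sets an unknown limit on genes of a few FPKM, such as NDUFAF5, NDUFAF6 and NDUFS7.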
